A study of Homo sapiens with 2 samples.

Results

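Immediate early genes are switched on within minutes of a growth factor or stress signal, without new protein synthesis, and many of them code for short-lived transcription factors and feedback regulators. They are short genes whose promoters are known to hold serum response elements, cyclic AMP response elements and sites for ETS factors. The 8 genes described here lie outside the FOS and JUN families: EGR1, KLF6 and IER2, which code for nuclear regulators of transcription, DUSP1 and IER3, which act on signalling and survival, ZFP36 and BTG2, which act on mRNA decay, and MCL1, which blocks apoptosis. They were named by symbol and chosen with earlier results of these data known, so shares below describe these genes and test nothing. Their peaks were those that overlapped the 5 kb on either side of a start site given on the hg19 build, and these were 23 of the 14471 peaks of the list. The study used ChIP-seq, the sequencing of immunoprecipitated chromatin, to map ZFX, an X-linked zinc finger factor that binds DNA, in the human medulloblastoma line DAOY. A library precipitated with a rabbit polyclonal antibody to ZFX gave the peaks, and sheared chromatin that was not precipitated served as input, with 1 library of each. The cells were grown in medium with serum, and the labels give no stimulation, knockdown or other treatment. The input and read counts were not analysed here, so depth is unknown, there is no replicate check and no test was made between groups. RNA was not analysed, so neither the level of these genes nor the identity of the line by marker genes was checked.

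The promoters are shown first, because peaks lay at or beside all of them. The RefSeq promoter sequences used here included 6 of the 8 genes, and IER3 and MCL1 were not matched in them. The 250 bases before the RefSeq start are printed 5' to 3' for 3 genes: EGR1 and DUSP1, whose start sites lay inside a strong peak, and BTG2, whose start site lay between a pair of weak ones. They are on GRCh38.p14, at chr5:138465229-138465478 on the plus strand, chr5:172771196-172771445 on the minus strand and chr1:203305269-203305518 on the plus strand. These positions belong to another build than the peaks and were not compared with them. Capitals mark the CArG box (CC, then 6 letters A or T, then GG, the core of the serum response element), TGACG (the left part of the cyclic AMP response element) and TATAAA, on either strand.
EGR1: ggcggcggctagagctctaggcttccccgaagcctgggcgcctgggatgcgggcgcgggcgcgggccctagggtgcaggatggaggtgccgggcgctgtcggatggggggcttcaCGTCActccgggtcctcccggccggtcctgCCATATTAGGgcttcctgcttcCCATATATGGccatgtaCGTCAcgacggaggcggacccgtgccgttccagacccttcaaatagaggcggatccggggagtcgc
DUSP1: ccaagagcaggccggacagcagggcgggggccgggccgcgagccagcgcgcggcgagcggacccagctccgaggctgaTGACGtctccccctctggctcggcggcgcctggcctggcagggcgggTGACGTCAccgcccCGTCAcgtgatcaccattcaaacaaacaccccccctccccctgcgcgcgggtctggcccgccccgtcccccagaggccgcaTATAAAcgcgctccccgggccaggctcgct
BTG2: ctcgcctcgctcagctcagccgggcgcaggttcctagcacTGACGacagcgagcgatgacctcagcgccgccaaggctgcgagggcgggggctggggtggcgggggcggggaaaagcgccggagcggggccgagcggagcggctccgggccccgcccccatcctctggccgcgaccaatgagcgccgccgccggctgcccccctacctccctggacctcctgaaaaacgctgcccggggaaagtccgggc

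EGR1 held 2 CArG boxes, which began 105 and 83 bases before the start, and 2 TGACG matches. DUSP1 held 4 TGACG matches, of which the pair beginning 125 and 122 bases before the start made up 1 whole TGACGTCA, and a TATAAA 30 bases before the start. BTG2 held 1 TGACG match and neither of the other motifs. A CArG box was found in 1 of the 6 promoters and in 1.16% of all 35116 promoters of the table, and TGACG in 4 of 6 and in 21.2%. TGACGTCA and TATAAA were each found in 1 of 6, DUSP1, and in 1.65% and 10.7% of all promoters. The GC box GGGCGG was found in 5 of 6, all but EGR1, in 42.6% of all promoters and in 53.7% of the 22199 promoters of protein-coding genes. For the other motifs the shares of protein-coding promoters were within 3.0 percentage points of those of all promoters. CCAAT was found in KLF6 and BTG2 and in 32.0% of all promoters, and the ETS core GGAA in 5 of 6, all but DUSP1, and in 92.7%. AGGCCT, the core of the known ZFX motif, was in none of the 6 and in 9.20% of all promoters. That says only that these letters are not in these 250 bases. The 6 promoters held 22 to 30 CG dinucleotides, against a median of 16 in promoters of protein-coding genes, and had a GC content of 68.4% to 76.4% against a median of 62.0%. Of 30 other immediate early genes listed by name, 23 had a promoter in the table. A CArG box was in 2 of these 23, TGACG in 14, GGGCGG in 18, TATAAA in 10 and AGGCCT in 2. Their peaks were not analysed here, since no positions on hg19 were used for them.

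All 8 genes had a peak within 5 kb, and 7 had 2 or more. When the chromosomes were cut into 293601 tiles of the same length between their outermost peaks, 4.11% of tiles held a peak and 0.867% held 2 or more. Most tiles hold no start site, and starts of other genes on hg19 were not used here, so these shares do not say how the 8 genes stand among genes. A closer background was made of windows centred on each peak of the list, which hold a peak by construction. Of these, 39.4% held 2 or more peaks. The peaks they are centred on may lie anywhere, so this background too does not say how the 8 genes stand among genes. EGR1 had 5 peaks, and IER2 and KLF6 had 4 each, so that 3 genes had 4 or more, against 3.95% of the windows centred on a peak. ZFP36 had 3 peaks, IER3, DUSP1 and BTG2 had 2 each, and MCL1 had 1.

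**Figure D1:**
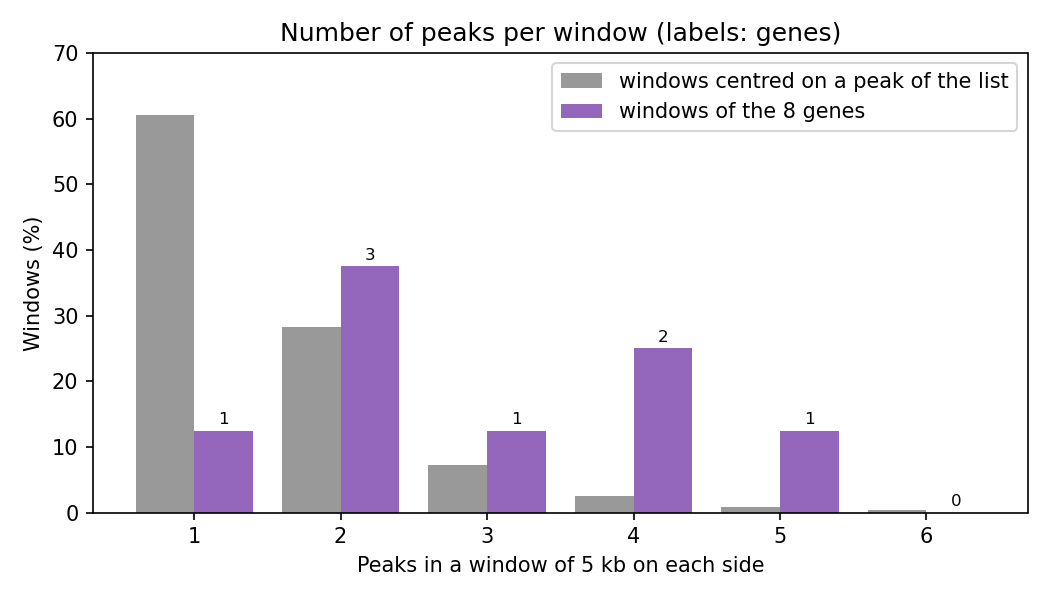
Share of windows (%) by the number of peaks they hold, for windows centred on the 14471 peaks of the list (grey) and for the windows of the 8 genes (purple, number of genes above the bar). A single peak was found in 60.6% of the windows centred on a peak and at 1 of the 8 genes, MCL1.

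The start site itself lay inside a peak at 5 genes, EGR1, IER2, IER3, DUSP1 and ZFP36. At the other 3 the nearest peak edge was 32 bp away for MCL1, 118 bp for BTG2 and 132 bp for KLF6. Of all positions between the outermost peaks, 0.280% lay inside a peak. Most positions are no start sites, so this share does not say how the 8 genes stand among genes. Of the 23 peaks, 5 covered a start, 11 lay wholly downstream and 7 wholly upstream. The first 500 bp downstream were touched by a peak at all 8 genes and the 500 bp upstream at 7. Farther out, between 2000 and 2499 bp downstream 4 genes were touched, and between 1501 and 2500 bp upstream none was. Each 500 bp step from 2501 to 5000 bp upstream touched 1 or 2 genes. Each step from 2500 to 4999 bp downstream touched 2 to 4.

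**Figure D2:**
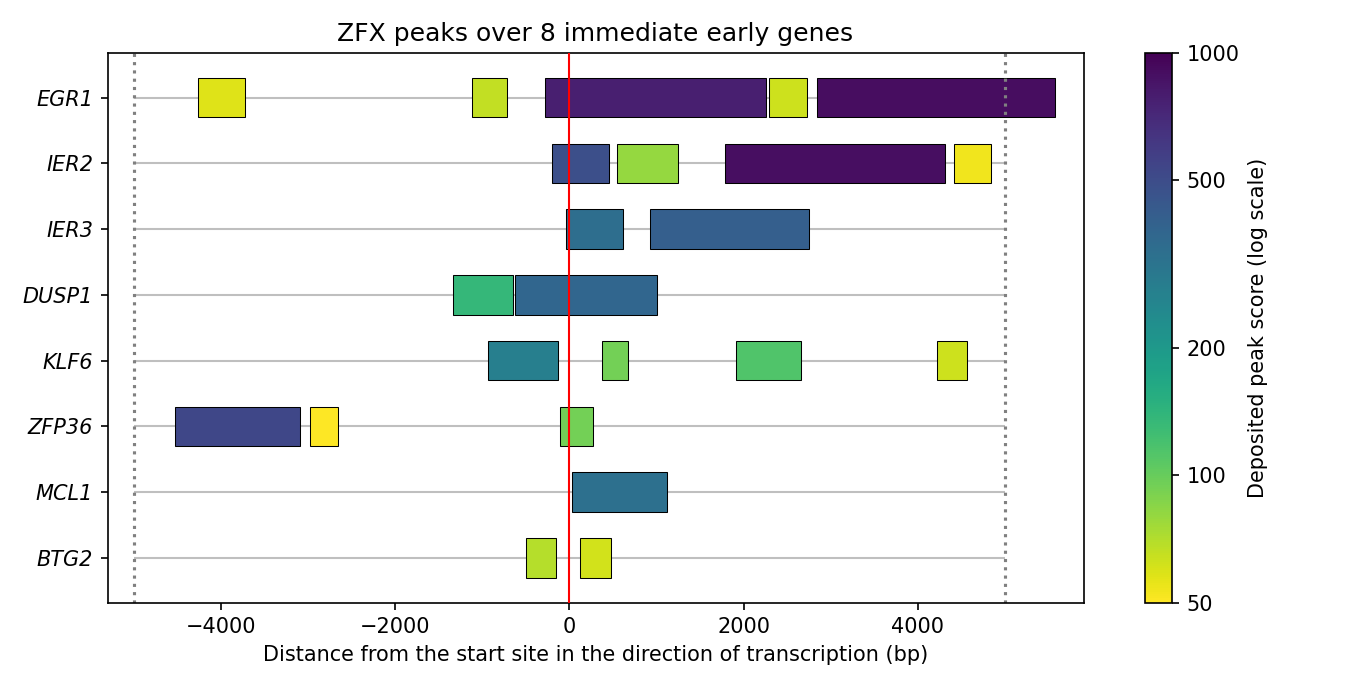
Peaks drawn to scale along the distance from the start site in bp, in the direction of transcription, for each of the 8 genes. The red line is the start site, dotted lines are the edges of the window at 5000 bp, and colour gives the deposited score on a log scale. The broad dark peaks of EGR1 and IER2 fill much of the downstream side, and the start of BTG2 lies in the gap between its 2 peaks.

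EGR1, a zinc finger transcription factor induced by serum and growth factors, carried the most peaks and the longest coverage. Its start site (chromosome 5, 137801181, plus strand) lay in a peak of 2532 bp at 137800904 to 137803435 with a score of 779. That peak reached from 277 bp upstream to 2254 bp downstream. A second broad peak of 2727 bp at 137804021 to 137806747 scored 910.3 and ran from 2840 to 5566 bp downstream, past the edge of the window. A narrow peak of 428 bp with a score of 62.8 lay between them. Upstream there were only weak peaks, one of 407 bp with a score of 65.6 whose near edge was 714 bp from the start and one of 543 bp with a score of 58.1 at 3725 bp. The broad peaks were the 15th and the 11th widest of the list, and 2.51% of all peaks scored higher than the stronger of them.

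IER2, a short gene for a nuclear protein named as an immediate early response gene, also had a broad peak downstream of its start. This was its strongest peak, 2525 bp at chromosome 19, 13263066 to 13265590, with a score of 897, the 16th widest of the list. A peak of 660 bp at 13261080 to 13261739 covered the start site (13261282, plus strand) with a score of 489.5. Weaker peaks lay on either side of the broad one, 695 bp wide with a score of 80.7 and 430 bp wide with a score of 53.6. In RefSeq the neighbouring gene STX10 starts within 250 bp of IER2 on the opposite strand, so the peak over the start cannot be assigned to IER2 alone.

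KLF6, a zinc finger factor of the Krüppel-like family, had its peaks spread out. The strongest, 804 bp at chromosome 10, 3827605 to 3828408, with a score of 277, lay upstream of the start site (3827473, minus strand), from 935 to 132 bp before it. Downstream were a peak of 295 bp with a score of 94.8 from 374 bp, a peak of 752 bp with a score of 114 from 1910 bp, and a peak of 348 bp with a score of 63.1 from 4214 bp. No peak of KLF6 reached 300, and its peaks on either side of the start left the start itself uncovered.

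DUSP1, a phosphatase that inactivates MAP kinases, was the 1 gene of the 8 whose strongest peak covered the start site. This peak spanned 1635 bp at chromosome 5, 172197195 to 172198829, with a score of 378, and reached 626 bp upstream and 1008 bp downstream of the start (172198203, minus strand). A second peak of 691 bp with a score of 135 followed 19 bp farther upstream. RefSeq places the start of LOC105377730, a noncoding transcript on the opposite strand, within 5 kb upstream of DUSP1, so this peak cannot be assigned to DUSP1 alone. IER3, which modulates survival under stress, had a peak of 655 bp with a score of 342 over its start (chromosome 6, 30712331, minus strand), of which only 40 bp lay upstream. A wider peak of 1823 bp at 30709579 to 30711401 scored 409.8 and ran from 930 to 2752 bp downstream. RefSeq places the starts of FLOT1 and of the antisense transcript IER3-AS1 within 5 kb downstream of IER3, and this peak cannot be told apart from peaks at those starts.

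ZFP36, also known as tristetraprolin, binds AU-rich elements in mRNAs and promotes their decay. A peak of 375 bp with a score of 94.3 covered its start (chromosome 19, 39897487, plus strand). Its strongest peak was distant, 1427 bp at 39892964 to 39894390 with a score of 526, from 4523 to 3097 bp upstream. A peak of 314 bp beside it scored 50.1, close to the lowest score of the list, which is 50. BTG2, an antiproliferative protein that binds a deadenylase complex, had only weak and narrow peaks. One of 350 bp with a score of 69.7 ended 153 bp upstream of its start (chromosome 1, 203274664, plus strand), and one of 360 bp with a score of 61.6 began 118 bp downstream. RefSeq lists BTG2-DT, a transcript on the opposite strand, with its start within 250 bp of BTG2.

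MCL1, an inhibitor of apoptosis of the BCL2 family with a rapidly turned-over product, had a single peak. It spanned 1085 bp at chromosome 1, 150551098 to 150552182, with a score of 334, and lay from 32 to 1116 bp downstream of the start (150552214, minus strand). No base of the 5 kb upstream was inside a peak.

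**Figure D3:**
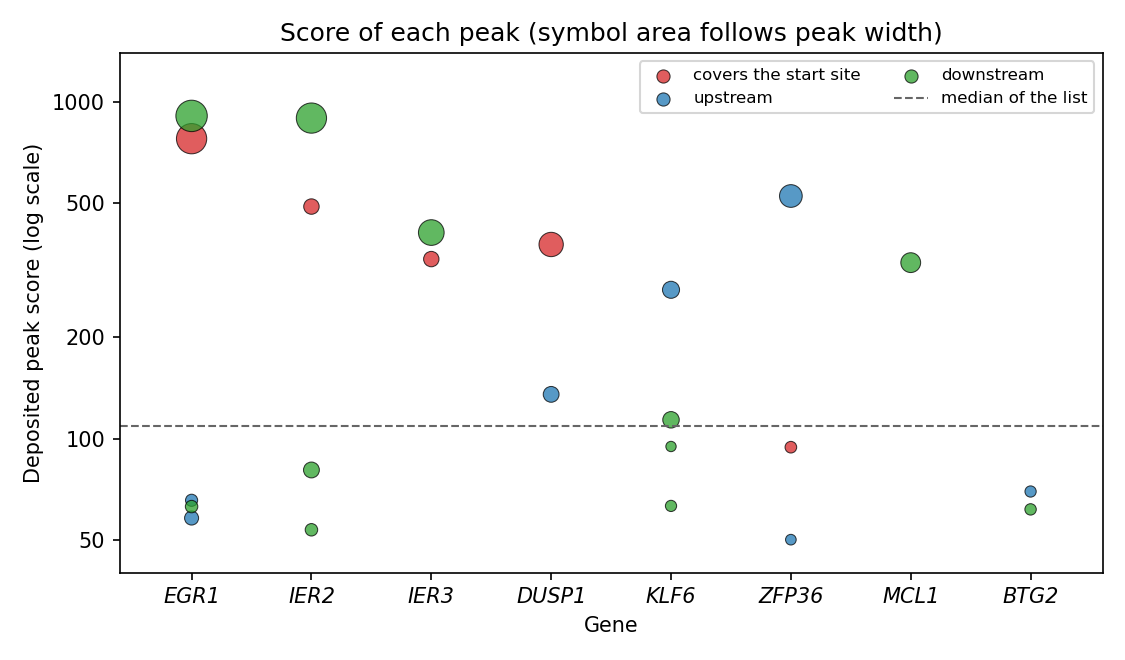
Deposited score (log scale) of each of the 23 peaks by gene, with symbol area following peak width and colour giving the position relative to the start site. The dashed line is the median score of the list, 109. BTG2 is the 1 gene with no peak above it, and EGR1, IER2 and ZFP36 each have peaks far above and far below it.

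The median score of the 23 peaks was 114 against 109 in the list, and 12 of 23 scored above the median of the list, against 49.9% of all peaks. A score of 300 or more was reached by 9 of 23 peaks and by 17.8% of all peaks, and a width of 1200 bp or more by 6 of 23 and by 4.64%. These steps were chosen after the values had been seen. The 9 strong peaks lay at 6 genes, EGR1, IER2, IER3, DUSP1, ZFP36 and MCL1, and had a median width of 1635 bp. The 11 peaks under 100 had a median width of 375 bp and lay at EGR1, IER2, KLF6, ZFP36 and BTG2. Of the 17 peaks of the list that were at least 2500 bp wide, 3 lay here, 2 at EGR1 and 1 at IER2. The score has no stated unit and is the authors' own, so it orders peaks within this list and is not a level of binding.

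Peaks formed runs at 7 of the 8 genes. When peaks at most 1 kb apart were joined, 12 regions touched the windows and 7 of them held 2 or more peaks, against 17.9% of the 11962 regions of the list. Regions of 4 or more peaks were 2 of the 12 and 0.477% of the list. The regions of the list may lie anywhere, so these shares do not compare the 8 genes with other genes. The run of EGR1 held 4 peaks over 6687 bp (137800061 to 137806747), from 1120 bp upstream to 5566 bp downstream of the start, and 91.1% of it lay inside peaks. The run of IER2 held 4 peaks over 5043 bp (13261080 to 13266122), from 202 bp upstream to 4840 bp downstream, with 85.5% inside peaks. These 2 were among the 9 regions of the list that were 5 kb or longer, which are 0.0752% of all regions. The run of IER2 depends on its peak with a score of 80.7, without which its start peak and broad peak lie over 1 kb apart. The other runs held 2 peaks each and were shorter, 2793 bp at IER3, 2345 bp at DUSP1, 1862 bp at ZFP36, 1604 bp at KLF6 and 980 bp at BTG2. Those of IER3, DUSP1, KLF6 and BTG2 spanned the start site, and that of ZFP36 ended 2662 bp before it.

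Within runs, strong and weak peaks often stood side by side. Neighbouring peaks of the windows were at most 1 kb apart in 11 cases, with a median gap of 121 bp against 167 bp over the 2509 such pairs of the list. Gaps of at most 150 bp were 6 of 11, against 47.1% in the list, which is near the background. A peak of 300 or more stood beside one under 100 in 7 of 11 pairs, against 12.7% of the pairs of the list. These 7 pairs came from 3 genes, 3 each from EGR1 and IER2 and 1 from ZFP36, and pairs of 1 gene share peaks. The smallest gap, 19 bp, separated the 2 peaks of DUSP1, and 40 bp and 117 bp separated the weak peak of EGR1 from its broad neighbours. How the caller divides a broad enriched region was not tested.

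The length inside peaks ordered the genes from EGR1 with 6071 bp (60.7% of its window) and IER2 with 4310 bp (43.1%), through IER3 with 2478 bp, DUSP1 with 2326 bp, KLF6 with 2199 bp and ZFP36 with 2116 bp, to MCL1 with 1085 bp and BTG2 with 710 bp (7.10%). The middle 4 genes were within 362 bp of each other. Windows centred on a peak of the list had a median of 714 bp inside peaks and a 95th percentile of 1995.5 bp. EGR1, IER2, IER3, DUSP1, KLF6 and ZFP36 lay above that percentile, MCL1 between it and the median, and BTG2 just under the median. Of the windows centred on a peak, 0.0967% had as much covered length as EGR1 and 0.359% as much as IER2.

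Over the 8 genes together coverage lay mostly downstream of the start sites, and most of that was at EGR1, IER2 and IER3. Over the 8 windows 15507 bp were covered downstream and 5788 bp upstream, a downstream share of 72.8%. More was covered downstream than upstream at 6 genes, and the excess was only 10 bp at BTG2. The downstream share was 98.4% at IER3, 95.3% at IER2, 79.8% at EGR1 and 63.4% at KLF6, and all of the peak of MCL1 lay downstream. DUSP1 with 43.4% and ZFP36 with 12.7% had more upstream. EGR1 and IER2 held 48.7% of the covered length, and without them the share was 60.1%. With IER3 left out as well, slightly more was covered upstream than downstream over the remaining genes. At IER3 the starts of FLOT1 and IER3-AS1 also lie within 5 kb downstream, so its share cannot be assigned to IER3 alone. Starts of other genes on hg19 were not used, so no downstream share of other genes stands beside these values. The ends of the genes on hg19 were not used here, so downstream coverage is placed by distance from the start and not by exon or intron.

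**Figure D4:**
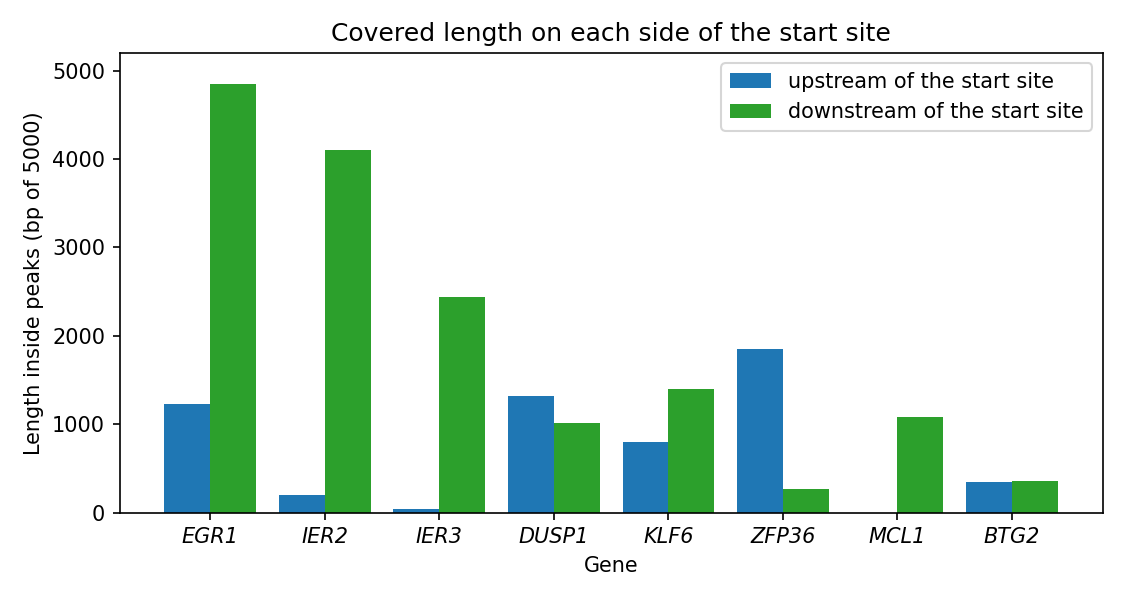
Length inside peaks (bp of the 5000 bp on each side) upstream (blue) and downstream (green) of the start site of each gene. EGR1 and IER2 have 4844 bp and 4108 bp downstream, and ZFP36 stands apart with 1848 bp upstream and 268 bp downstream.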

How the data were processed

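The authors deposited 1 peak list, for the ZFX library, without column names. MACS, a peak caller, appears in the name of each peak. Per the submitters' processing notes, hg19 and Bowtie2 2.0.0 were used, with no role stated for either. The sources used here give no version, cutoff or control sample for the caller. The score of each peak was deposited by the authors without a stated unit. Starts were taken as counted from 0 and are printed counted from 1. A peak belonged to a gene when it overlapped the 5 kb on either side of the start site by at least 1 bp, and runs joined peaks at most 1 kb apart. Backgrounds were tiles of 10001 bp, windows of that length centred on each peak, and all peaks or joined regions, each with the 23 peaks included. All 8 genes were named. The genes and lists were chosen with earlier results of these data known. Motifs were searched on both strands of RefSeq promoters (GRCh38.p14). The interval functions were checked on simulated data. Alternatives changed the window, the score, the overlap, the gap and the counting of starts. Python 3.11.15, numpy 2.4.6, pandas 2.3.3 and matplotlib 3.10.9 were used.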

Additional observations from a re-analysis of the deposited data

How the results depend on the processing

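Of 36 alternatives for 8 results, 29 stayed within 1.5 times the value reported; 32 were planned and 4, on the downstream share, were added after the data had been seen. Among peaks above the median score, and among those of 100 or more, 12 peaks remained in the windows. Above the median score 3 runs of 2 or more peaks remained, at EGR1, IER3 and DUSP1, so the run of IER2 was lost. A peak came within 250 bp of the start, and so also within 1 kb, at 8 genes in place of 5. With 2 kb on each side the covered length was 11669 bp and the median score 206. Fewer peaks or a shorter window are these alternatives' own construction; for the median score the cause was not tested. The number of genes with a peak was 7 or 8 in its 5 alternatives, with BTG2 lost in the stricter scores. The downstream share was 60.1% to 75.7% in its 4, none of which left out IER3 as well as EGR1 and IER2. No paired analysis was possible because each group has 1 library and only 1 has peaks. Peaks were not screened for repeated sequence, and weak sites below the calling threshold cannot be counted.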

Other observations

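Outside the windows the 8 genes differed in how alone their peaks stood. At 6 of them the next peak lay more than 10 kb from the start site on both sides, the exceptions being IER3 and ZFP36. How far other peaks of the list stand from the next was not counted, so these distances do not set the 8 genes apart. MCL1 had no other peak for 394 kb upstream, BTG2 none for 117 kb and EGR1 none for 112 kb, whereas the next peaks downstream of these genes were 17.5, 21.9 and 26.2 kb away. KLF6 had the next peak 19.0 kb upstream and 73.9 kb downstream. Upstream of IER3 a peak of 586 bp with a score of 70.3 began 6.91 kb from the start, and a peak of 957 bp with a score of 337 began at 7.96 kb. Upstream of ZFP36 a peak of 350 bp with a score of 74.5 lay 8.81 kb away, and the strongest peak between 5 and 50 kb from any of the 8 starts, with a score of 446, lay 37.9 kb downstream of the same gene.

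Between 5 and 50 kb from the starts there were 23 peaks, with a median score of 80.6 against 109 in the list. Of these, 10 scored above the median of the list and 3 reached 300, against 49.9% and 17.8% of all peaks. Between 5 and 500 kb the number of peaks per 10 kb ranged from 0.0404 at KLF6 to 0.364 at IER2. It was above the 0.0493 of the whole list at 7 of the 8 genes. The value of the list is over the whole span between the outermost peaks of the chromosomes. Surroundings of other genes were not counted, so it does not say how the 8 genes stand among genes. These numbers were looked at after the windows had been described, and no test was made of them.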
